A study of Arabidopsis thaliana with 12 samples.

Results

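Transcript signals were described in seeds of Arabidopsis thaliana kept in water without added hormone, the unstimulated state against which the hormone treatment of the study is set. The 6 arrays of seeds in water were taken from the 12 one-colour Affymetrix arrays of the study by their labelled treatment, with 2 arrays (lettered A and B) after 3, 6 and 9 h. The other 6 arrays carried RNA of seeds given 5 µM gibberellin for the same times, also 2 arrays a time. All 12 were of total RNA from whole seeds of stock N3742 in the Ler (Landsberg erecta) background. No allele of this stock, form of gibberellin or treatment of the seeds before incubation is stated in the labels. The labels do not say whether A and B are separate batches of seeds, so p-values measure only the spread between these arrays, which may be technical. In whole seeds, fewer cells of a type and less RNA per cell cannot be told apart.

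A mature seed enters imbibition with a store of messenger RNA laid down during maturation. This store is known for transcripts of storage proteins, of oil body proteins and of late embryogenesis abundant (LEA) proteins, which protect cells during drying, together with transcripts of the translation machinery. Gibberellin promotes germination by removing DELLA repressors through its receptors GID1 and the F-box protein SLY1, whereas abscisic acid holds it back. In water, levels are set by what the dry seed stored, by decay and by new synthesis during imbibition.

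Each array gave a MAS5 signal, a brightness with no unit, for 22746 probe sets besides 64 controls. Of these, 13513 name exactly 1 gene, 13436 of them match the reference table, and they stand for 13286 genes, which are called the named genes here. The other 503 probe sets that name several genes and the 8730 unnamed ones are not described. The naming covers the brightest end in part: 214 of the 500 probe sets with the highest signal name 1 matched gene, and the highest of these ranks 5 among all. A signal depends on the probes of its set as well as on the transcript, so a rank below is a rank of signal and not of molar abundance. Signals were scaled by the submitters to the same trimmed mean of 100 on every array, which removes any change in the total RNA of a seed.

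The 6 arrays also differed in their ceiling and in their letter. The highest signal was 3760 (A) and 8882 (B) at 3 h, 3787 and 7135 at 6 h, and 7028 and 7359 at 9 h, so the A arrays of 3 h and 6 h had a lower ceiling than the other 4. For the Actin control probe sets, whose 3′ over 5′ signal rises as RNA is degraded or copied incompletely, this ratio was 4.88, 5.38 and 5.06 on the A arrays of 3, 6 and 9 h. On the B arrays it was 10.2, 8.76 and 10.1. The same ratio of ubiquitin averaged 1.53 over the A arrays and 2.23 over the B arrays (n = 3 each), without overlap. Letter A or B thus moved with these controls at all 3 times.

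The label of the tissue could be checked only in part. Of 16 seed markers (cruciferins, albumins, oleosins, EM1, EM6, PER1 and ALPHA-TIP), 1 has a probe set that names it alone, the oleosin OLEO3 (AT5G51210), which coats oil bodies. OLEO3 had signals of 459 and 777 at 3 h, 431 and 607 at 6 h, and 605 and 810 at 9 h (A array first, here and in every pair of values below). The vicilin-like storage protein PAP85 and many LEA transcripts, given below, were among the highest signals. None of the 4 leaf and 6 flower or pollen markers was measured by a probe set of its own, so these were not analysed here.

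Genes were sorted by their mean log2 signal over the 6 arrays, given below as a geometric mean signal. Near the floor, with a mean under 4 on the log2 scale (a signal of 16), lay 6194 genes. A low signal, from 4 to under 6, was found for 2779 genes, and a moderate one, from 6 (a signal of 64) to under 8, for 2980. High signals, from 8 to under 10, belonged to 1101 genes and very high signals, of 10 or more, to 232. The median over all named genes was 20.4. A gene near the floor is not shown to be silent, since no detection calls were used.

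Among the named genes, most of the 25 highest signals belonged to the translation machinery. Most cruciferin, albumin and oleosin probe sets have no single gene name here and were not analysed in this ranking. Of the 25 highest named genes, 17 were on a list of cytosolic ribosomal proteins, 12 of the large (60S) and 5 of the small (40S) subunit. The highest of all was AT3G09200 of the 60S list, with signals of 3758 and 6436 at 3 h, 3461 and 5981 at 6 h, and 5031 and 6256 at 9 h. It ranked between 1 and 4 among the named genes on every array. AT5G20290 of the 40S list ranked 3, with 3100 and 6356 at 3 h, 2721 and 5130 at 6 h, and 5422 and 5614 at 9 h. Both were lowest on the 2 arrays with the low ceiling, as were all 25 genes: both low-ceiling arrays lay under the other 4 in each of them. The ceiling is the highest signal of an array, so this order largely restates how the 2 arrays were set apart.

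The other ribosomal genes among the 25 were AT3G60245, AT1G67430, AT1G52300, AT4G27090, AT3G62870, AT2G19730, AT4G16720, AT2G27710, AT2G01250, AT3G49910 and AT1G01100 of the 60S list and AT5G15200, AT4G34670, AT1G15930 and AT2G41840 of the 40S list. Their mean signals lay between 3545 (AT1G01100) and 4383 (AT3G60245). AT2G01250 was the steadiest of these, with 2924 and 3865 at 3 h, 3163 and 4132 at 6 h, and 3705 and 3806 at 9 h. Of the 230 ribosomal loci on the list, 131 were measured, and 85 of them had a very high and 24 a high signal. Their median signal was 1751, against 20.4 over all named genes, and 57 of the 100 highest named genes were on this list.

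Not every ribosomal gene was bright. Of the 131, 3 were moderate, 7 low and 12 near the floor. AT3G10950 of the 60S list had the lowest signals, 3.62 and 0.811 at 3 h, 2.77 and 2.98 at 6 h, and 9.53 and 1.82 at 9 h. AT5G09490 was the lowest of the 40S list, with a mean signal of 5.21. Ribosomal proteins of Arabidopsis are encoded by small families of similar genes, so a probe set may also read a near-identical copy. The 60S list had 83 measured members with a median of 1667 and the 40S list 48 with a median of 1799.

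**Figure D1:**
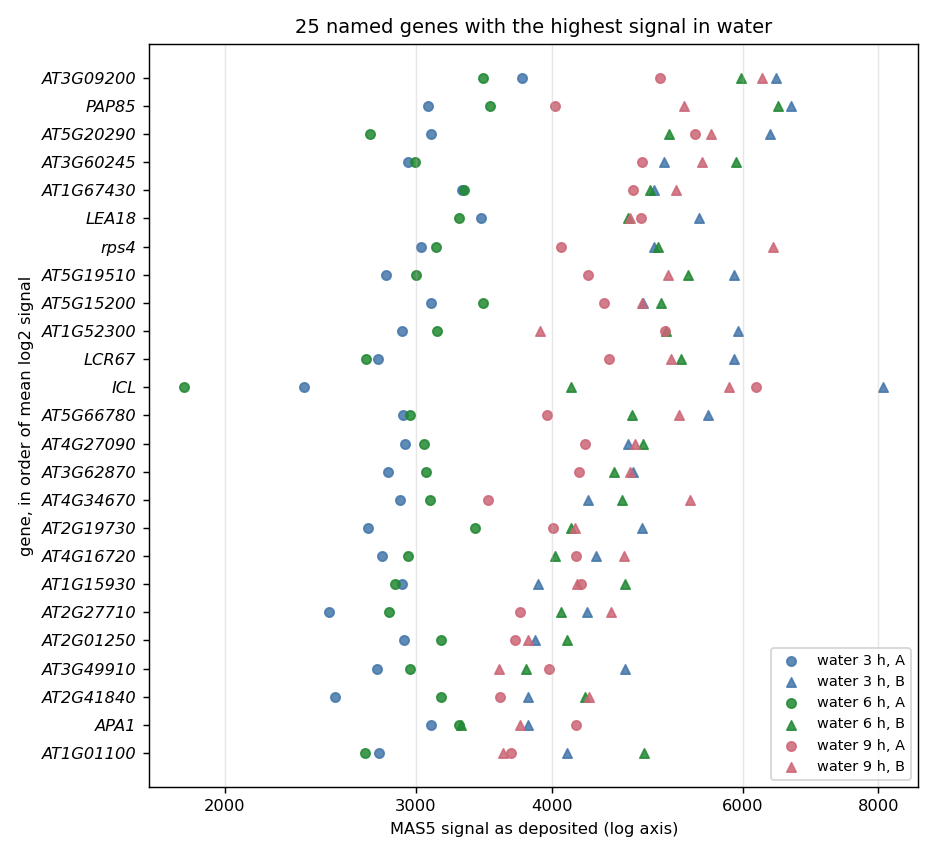
Signal (horizontal log axis) on each of the 6 water arrays for the 25 named genes with the highest mean, one gene a row; colour gives the time and the symbol the letter. The A arrays of 3 h and 6 h lie left of the other 4 in all 25 genes, and ICL has the widest spread, with signals between 1834 and 8088.

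The other 8 genes of the 25 came from the seed's stores and from a few other classes. PAP85 (AT3G22640), a vicilin-like globulin of the protein stores, ranked 2 with signals of 3078 and 6650 at 3 h, 3512 and 6468 at 6 h, and 4032 and 5294 at 9 h. LEA18 (AT2G35300) ranked 6 with 3442 and 5472, 3288 and 4699, and 4834 and 4728 at 3, 6 and 9 h, and AT5G66780, also of the LEA list, ranked 13. Rps4, a ribosomal protein encoded in the plastid genome, ranked 7 with a mean signal of 4284. LCR67 (AT1G75830, a plant defensin also called PDF1.1) had a mean signal of 4188, AT5G19510 one of 4249, and APA1 (AT1G11910), an aspartic proteinase, one of 3554.

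ICL (AT3G21720) encodes isocitrate lyase, which works in the glyoxylate cycle that turns stored fat into sugar. It had a mean signal of 4171 and ranked 12. Its arrays spread the most of the 25, with 2368 and 8088 at 3 h, 1834 and 4171 at 6 h, and 6165 and 5830 at 9 h. Its rank ran from 1 to 97 on single arrays. At 3 h and 6 h the B array was well above the A array, and at 9 h the letters were close, so no order of the times could be read from it.

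The LEA and dehydrin list had 37 measured members of 53, and 19 of them had a high or very high signal. Counted by band, 12 were very high, 7 high, 4 moderate, 4 low and 10 near the floor, with a median of 273. After LEA18 and AT5G66780 came AT3G15670, with 2446 and 4859 at 3 h, 2278 and 4144 at 6 h, and 3132 and 4065 at 9 h, and AT2G21490, with a mean signal of 2671. M10 and M17, also of this list, had mean signals of 2602 and 2396. B was higher than A at all 3 times in 20 of the 37 members (54.1%), against 16.4% of all named genes. The share was 58.2% of all very high and 33.1% of all high named genes, so this order was not particular to the LEA list. The A arrays of 3 h and 6 h were also those with the low ceiling. AT3G02480, given below, had A above B at 3 h and 9 h, so not every bright member had this order.

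The same family also reached the floor. AT2G33690 had 0.462 and 2.48 at 3 h, 0.468 and 0.698 at 6 h, and 0.138 and 3.36 at 9 h, and AT2G03740 had a mean signal of 1.61. The cold-regulated members COR15A and COR15B had mean signals of 3.46 and 9.24, and COR47, a dehydrin of the cold response, had one of 39.9. DI21 (1105) and AT2G46140 (170) were among the LEA members that varied least over the arrays, with ranges of 0.50 and 0.18 on the log2 scale; both, and the COR genes, were chosen after their values were seen.

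**Figure D2:**
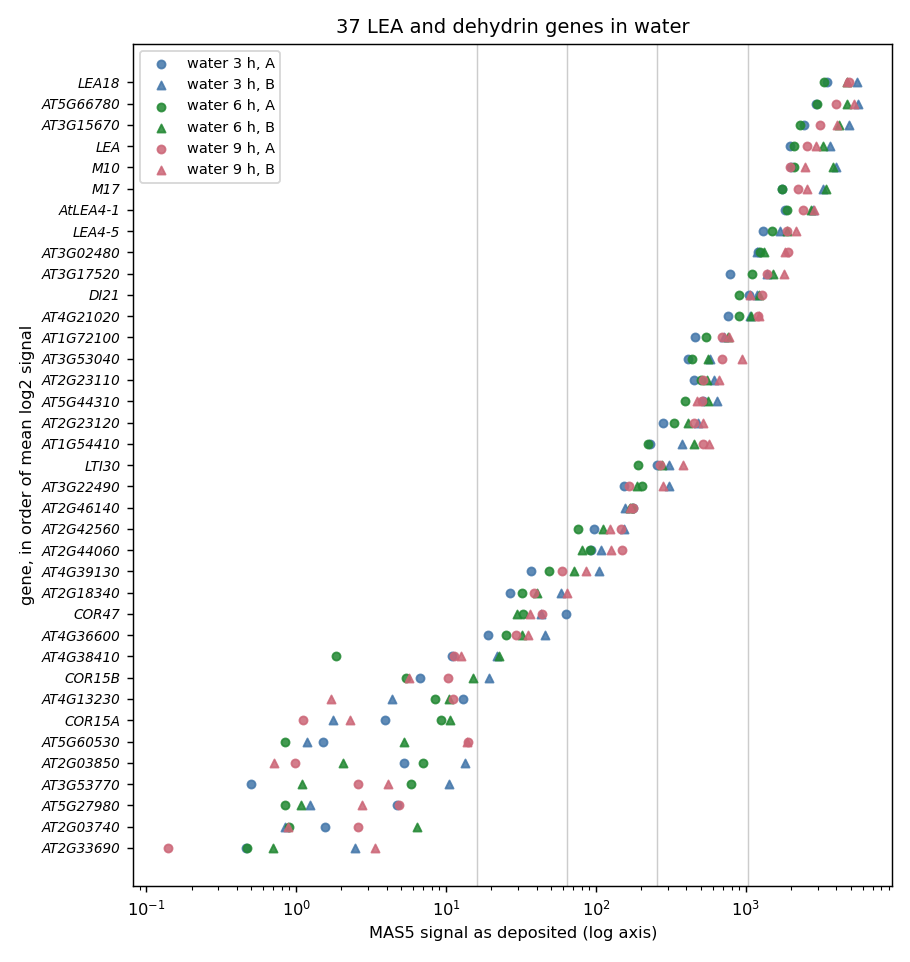
Signal (horizontal log axis) on each of the 6 water arrays for the 37 measured LEA and dehydrin genes, one gene a row; grey lines mark the edges of the bands at log2 signals of 4, 6, 8 and 10. The members run from LEA18 with a mean of 4337 to AT2G33690 with one of 0.747, and the spread over arrays widens below 16.

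Storage and fat mobilisation genes were covered thinly. Of 13 storage loci, 5 were measured: besides PAP85, AT2G28490 had 1254 and 3593 at 3 h, 1501 and 3008 at 6 h, and 1575 and 2081 at 9 h. AT4G36700 had a mean signal of 879, AT1G03890 one of 85.5 and AT2G18540 one of 21.3. In the storage gene AT2G28490 the B array was the higher at each time. Of 19 loci of lipid mobilisation, 4 were measured, and after ICL came AIM1 (462), a multifunctional protein of fatty acid beta-oxidation, SDP1 (247), the lipase that starts oil breakdown, and SDP1-LIKE (149).

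The measured hormone genes lay at several levels, all above the floor band by their mean. XERICO (AT2G04240), a RING protein known to raise abscisic acid levels, had a very high signal, with 1014 and 1131 at 3 h, 1156 and 1181 at 6 h, and 1254 and 1483 at 9 h. Of the 27 abscisic acid loci only XERICO and EEL were measured, and EEL (AT2G41070), a bZIP factor of seed maturation, had a mean signal of 109. Of 9 regulators of maturation and dormancy 2 were measured, the linker histone HIS1-3 (322) and the MADS-box factor AGL67 (113).

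Of 13 loci of gibberellin perception and signalling, 6 were measured, 3 with a high and 3 with a low signal. Only 5 of these 6 had a signal of 16 or more on each of the 6 arrays. SPY, an O-fucosyltransferase that restrains the pathway, had 557 and 564 at 3 h, 562 and 595 at 6 h, and 537 and 643 at 9 h. The receptor GID1A had 375 and 264, 391 and 348, and 345 and 299 at 3, 6 and 9 h, and SLY1 had a mean signal of 277. The receptors GID1C and GID1B had mean signals of 41.1 and 20.3, and SLY2, the relative of SLY1, had one of 26. SPY and SLY1 changed little between arrays, with ranges of 0.26 on the log2 scale in both, while GID1B ranged over 2.12.

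The plastid genome was read broadly, with 69 measured genes and a median signal of 168. Of these, 8 were very high, 23 high, 17 moderate, 15 low and 6 near the floor. After rps4 came atpB, a subunit of the plastid ATP synthase, with 3124 and 3828 at 3 h, 1840 and 4436 at 6 h, and 4265 and 4274 at 9 h, then atpE (2752) and petB (1537). The lowest were rps14 (9.60) and ndhF (11.2). A was higher than B at all 3 times in 34 of the 69 genes (49.3%), against 17.7% of all named genes. The plastid genes thus leaned to the letter opposite to that of the 100 highest named genes, of which 77 were higher on B at all 3 times and 0 on A. At 3 h and 6 h the A arrays were also those with the low ceiling, so letter and ceiling cannot be told apart there. The part of the ceiling and of the 3′ to 5′ ratios in these letter differences was not tested.

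Nuclear genes of photosynthesis were read by 4 of 25 loci. RCA, the activase of Rubisco, had 434 and 182 at 3 h, 480 and 249 at 6 h, and 441 and 323 at 9 h, and the antenna protein LHCB4.1 had a mean signal of 305. Both were higher on A at each time. PORB, which makes chlorophyllide in light, and LHCB4.2 were near the floor, with mean signals of 9.19 and 3.35.

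Among genes often used as references in expression studies, 9 of 20 were measured. GAPC2, a glyceraldehyde-3-phosphate dehydrogenase of glycolysis, had 2421 and 3441 at 3 h, 2877 and 3618 at 6 h, and 2998 and 3651 at 9 h. AT4G12590 (658) varied the least of the 9, with a range of 0.31 on the log2 scale. AT4G26410 (363) and AT2G43770 (224) were next in level, AT1G16790 had a mean signal of 109, and ACT11, an actin best known from reproductive tissues, was the lowest with 17.62. The median range of the 9 was 0.52, against 1.23 over all named genes.

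Other families spread from bright to faint. Among 7 tubulin genes TUA6 had 1687 and 1537 at 3 h, 1623 and 1611 at 6 h, and 1628 and 1569 at 9 h, TUB9 and TUB7 had mean signals of 656 and 146, and TUB1 and TUB5 had 27.4 and 25. Among 13 ubiquitin-conjugating enzymes UBC28 had a mean signal of 1309, UBC22 437 and UBC31 1.51. Of 5 histone genes, HON4 (370), HIS1-3 and HTB2 (145) were above the floor, while HTR12, the histone of centromeres, and MGH3, known from pollen, had 15.4 and 5.83. Of 4 measured expansins, which loosen cell walls, EXPA15 had 260, EXPA8 64.7, EXPA9 22.6 and EXPA4 8.33.

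The measured cytochrome P450 genes, which were listed by their CYP symbol from probe sets that name 1 gene, lay largely near the floor. Of 23 cytochrome P450 genes, 17 (73.9%) were near the floor, against 46.6% of all named genes, and none was high; CYP71B6 (180) and CYP71B5 (127) led and CYP71B31 (0.873) came last. The 47 UDP-glycosyltransferases had 22 members near the floor and a median of 20.7, close to that of all named genes, with UGT76E12 (290) at their head. Of 6 WRKY factors, 3 were near the floor, and WRKY22 (106) was the highest. DFR and BAN, enzymes of seed coat flavonoids and the 2 measured of 17 such loci, had mean signals of 19.2 and 3.79. PRL, a subunit of the helicase of DNA replication, was the 1 measured of 13 cell cycle and replication loci and had 17.44. The small heat shock genes AT1G53540 and ATHSP22.0, the 2 measured of 14 heat shock loci, had 17.37 and 10.8.

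**Figure D3:**
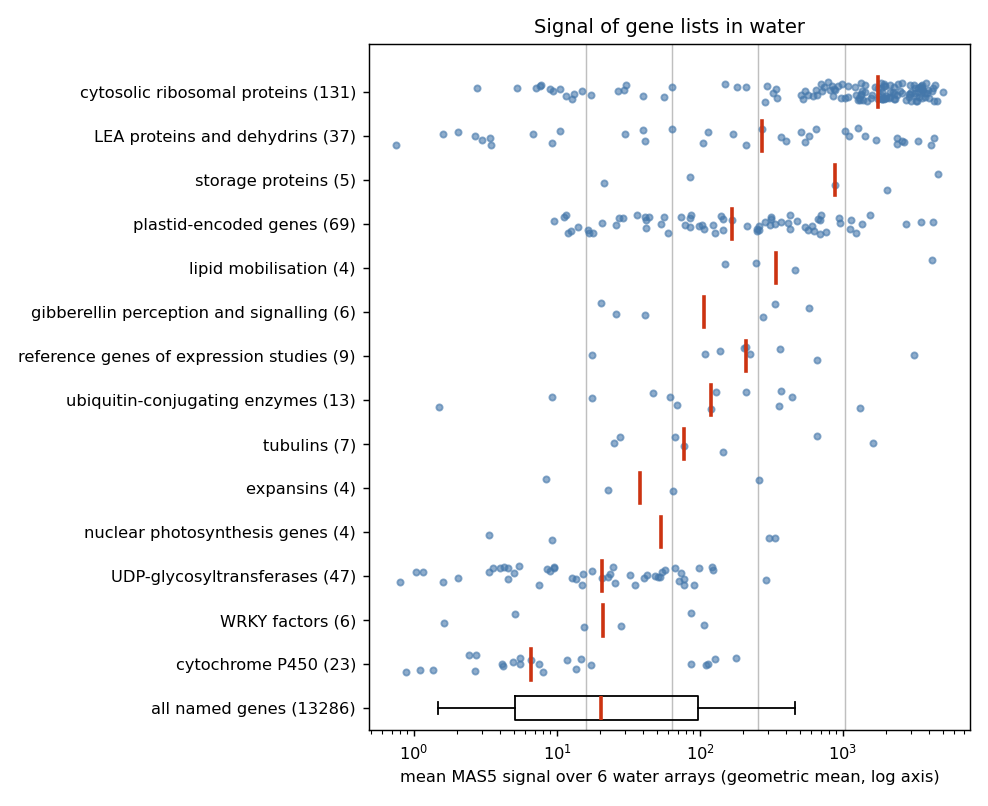
Geometric mean signal over the 6 water arrays (horizontal log axis) for the measured genes of 14 lists, one point a gene, with the list's median as a red bar and the number of genes in brackets; the box at the bottom gives the quartiles of all named genes and its whiskers the 5th and 95th percentiles. Ribosomal genes have a median of 1751 and P450 genes one of 6.62, against 20.4 over all named genes.

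Among moderate genes, some barely moved. The 10 genes of the moderate band with the smallest range were AT1G79720, ADCL, AT5G41950, AT4G34910, AT4G34960, AT5G13140, AT4G16444, AT3G17090, PRA1.H and ATRX, with ranges from 0.10 to 0.15 on the log2 scale over 6 arrays. ADCL (AT5G57850), aminodeoxychorismate lyase of folate synthesis, had 123 and 119 at 3 h, 128 and 128 at 6 h, and 120 and 124 at 9 h. ATRX (AT1G08600), a chromatin remodeller, had a mean signal of 91.8. Having been picked for a small range, they are given as a description.

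High signals were not always steady. Of the genes with a high or very high signal, those with the widest range, chosen after their values were seen, were ICL (2.14), plastid rpl16 (2.12), AT3G09440 (2.06) and AT1G66180 (2.06). PDF2.1, a plant defensin, had 719 and 2431 at 3 h, 948 and 1889 at 6 h, and 902 and 1779 at 9 h, with B above A at each time. AT3G09440 had the opposite pattern, with 354 and 178, 721 and 215, and 337 and 173 at 3, 6 and 9 h. In AT3G09440 A was above B at each time.

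The ranking was stable over the 3 times. Across all 22746 probe sets, Spearman's correlation of mean log2 signals was 0.962 between 6 h and 3 h, 0.960 between 9 h and 6 h and 0.960 between 9 h and 3 h; the points share arrays and probes, and the values are descriptions. Between 2 arrays of the same time it lay between 0.932 and 0.935, and between arrays that share neither time nor letter between 0.929 and 0.940. Between A arrays it was 0.958 (3 h and 6 h), 0.952 (3 h and 9 h) and 0.952 (6 h and 9 h). Between B arrays it was 0.927, 0.931 and 0.928 in the same order. Only the A arrays were thus more alike across times than arrays of different letters. Arrays of 1 time were no more alike than arrays that share neither time nor letter.

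Stability depended on the level. Among named genes, the correlation between 9 h and 3 h within the very high band was 0.958, within the high band 0.940, within the moderate band 0.929 and within the low band 0.840, and it fell to 0.539 among genes near the floor. The median range over the 6 arrays was 0.50 on the log2 scale for very high, 0.47 for high, 0.58 for moderate and 0.91 for low genes, and 3.31 for genes near the floor. The range stayed under 1, which is a factor of 2, in 88.8% of very high, 93.8% of high and 90.2% of moderate genes. Near the floor it did so in 3.21%, and 2034 of these 6194 genes (32.8%) reached a signal of 16 on at least 1 array.

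**Figure D4:**
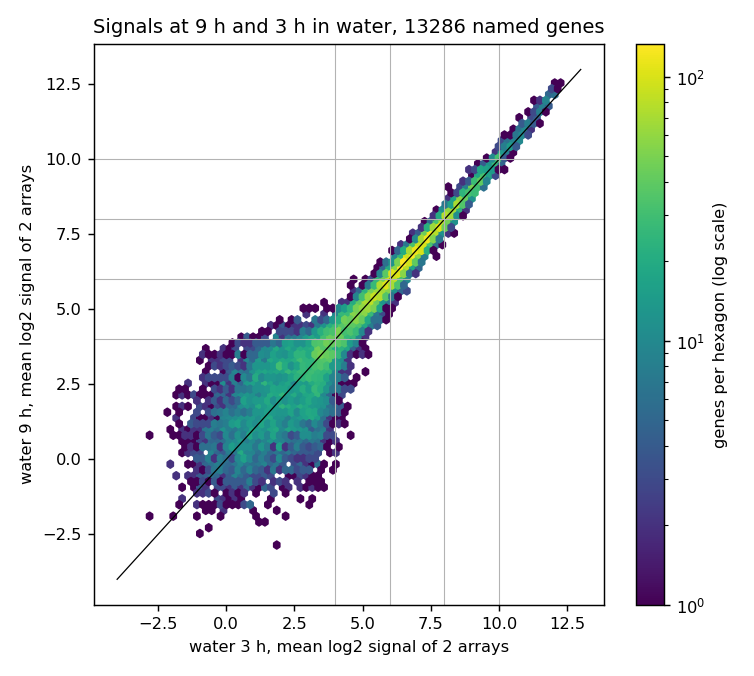
Mean log2 signal of the 2 arrays of 9 h (vertical) and of 3 h (horizontal) in water for 13286 named genes; colour gives the number of genes per hexagon on a log scale, the black line marks equal signals and the grey lines mark the bands at 4, 6, 8 and 10. The cloud is narrow above a log2 signal of 6 and widens below 4, where the correlation of the genes near the floor was 0.539.

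Most genes kept their band. Of the 13286 named genes, 11373 (85.6%) fell in the same band at 3, 6 and 9 h, 1913 (14.4%) moved by 1 band and 0 by more. Of the 232 very high genes, 213 were very high at each time, and of the 6194 near the floor 5477 were there at each time. The number of very high genes was 229 at 3 h, 232 at 6 h and 239 at 9 h.

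The top of the list changed little in membership and more in order. Of the 100 highest genes of a time, 88 were shared by all 3 times and 76 were among the 100 highest on each of the 6 arrays. Of the 20 highest, 15 were shared by the 3 times and 8 by the 6 arrays, and of the 500 highest 456 and 394. The A and the B array of a time shared between 87 and 89 of their 100 highest. Seeds in gibberellin and seeds in water shared 89 of their 100 highest genes at 3 h, 88 at 6 h and 82 at 9 h.

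No change with time in water passed the test. With limma's linear model over all 12 arrays and Benjamini-Hochberg adjustment, 0 of 15766 tested probe sets (0%) had an adjusted p under 0.05 between 6 h and 3 h, 0 (0%) between 9 h and 6 h, and 0 (0%) between 9 h and 3 h. The lowest adjusted p was 1, 1 and 0.9998 for these comparisons. At an unadjusted p under 0.05 there were 291, 339 and 326 probe sets, or 1.85%, 2.15% and 2.07%. Where nothing changes and the spread is rightly estimated, a threshold of 0.05 passes a larger share than these. The fit without a block may therefore overstate the spread, and these low shares are no evidence of equal levels. The median size of the log2 change was 0.18, 0.19 and 0.19 with a median SE of 0.32. With the letter as a replicate block, the counts at an unadjusted p under 0.05 rose to 531, 698 and 683. In that fit 2 probe sets (0.0127%) passed between 9 h and 3 h, both unnamed here. The SE and adjusted p of single genes between times, given below, are from the fit without a block. None of the genes named here was therefore called between times in either fit, and the changes below are values. A p that misses the threshold does not show that levels were equal.

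Changes were also taken within each letter, A with A and B with B. Among the 15766 probe sets, both letters changed by 1 or more on the log2 scale in the same direction in 173 (1.1%) between 6 h and 3 h, in 230 (1.46%) between 9 h and 6 h and in 236 (1.5%) between 9 h and 3 h. They changed by as much in opposite directions in 227, 240 and 238 probe sets, so agreement between letters was no more frequent than disagreement. The signs of the 2 letters were the same in 48.4%, 51.2% and 51.7% of the probe sets, and the correlation of the A and the B changes across probe sets was -0.05, -0.01 and 0.03. These comparisons share arrays: the 6 h arrays enter the first and the second.

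Nearly all of the large changes lay at low signal. Among the 8253 tested probe sets with a mean signal of 64 or more, both letters changed by 1 or more in the same direction in 0 between 6 h and 3 h, 1 between 9 h and 6 h and 2 between 9 h and 3 h, and none of these 3 has a gene name here. Of the 4313 tested named genes at or above 64, 4285 (99.4%) differed by less than a factor of 2 between 9 h and 3 h in both letters. Of the 4408 below 64, 3011 (68.3%) did.

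**Figure D5:**
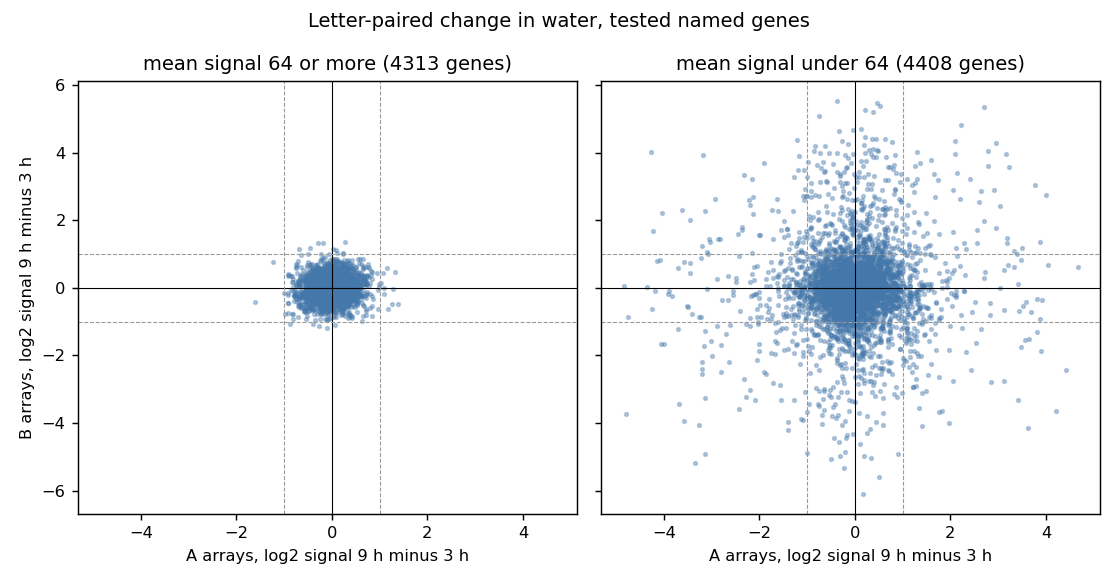
Change of log2 signal in water, 9 h minus 3 h, within letter B (vertical) and within letter A (horizontal) for tested named genes with a mean signal of 64 or more (left, 4313 genes) and under 64 (right, 4408 genes); dashed lines mark changes of 1. The left cloud stays within the dashed lines for 99.4% of genes. Over all 15766 tested probe sets, the A and the B changes correlated at 0.03.

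The genes with the largest letter-paired change all lay near the floor. Between 9 h and 3 h the highest values belonged to AT3G50720, AT5G11290, AT5G29090, AT3G15250, LCR66, AT1G67330, AT3G03670, AT3G10580, AT3G43110 and AT3G51560, with a smaller letter change between 2.64 and 3.22 and mean signals between 3.58 and 6.92. AT3G50720 had 18.3 and 17.8 at 9 h, against 1.97 and 1.502 at 3 h, a log2 change of 3.39 ± 1.48 (SE, limma adjusted p = 0.9998). The most negative values belonged to AT3G62180, AT4G02850, AT1G73610, AT4G28460, AT2G32190, AT3G01730, AT3G05400, AT3G55060, AT5G17350 and AT5G59760. AT4G02850 had 2.12 and 1.56 at 9 h, against 25.1 and 23.9 at 3 h, a log2 change of -3.75 ± 0.94 (SE, limma adjusted p = 0.9998). The arrays of 9 h and 3 h did not overlap in these 2 genes, and 1 of the times was near the floor in each.

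The shorter steps looked alike. Between 6 h and 3 h the gene with the largest positive letter-paired value was AT5G33200, with a mean signal of 1.94, and the most negative was AT5G49350, with one of 5.03. Between 9 h and 6 h these were AT2G13970 (4.42) and AT2G25510 (7.96). AT2G06700 had 19.4 and 25.4 at 3 h, 0.986 and 4.503 at 6 h, and 17.59 and 25.1 at 9 h, so it stands among the 10 most negative values of the first step and the 10 most positive of the second through its 6 h arrays.

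Among genes with a mean signal of 64 or more, picked by the same measure after their values were seen, the changes were small. Between 9 h and 3 h the LEA-list gene AT3G53040 led the rises with 689 and 941 at 9 h, against 407 and 574 at 3 h, a log2 change of 0.74 ± 0.28 (SE, limma adjusted p = 0.9998). AT3G02480, also of the LEA list, had 1902 and 1832 at 9 h, against 1203 and 1179 at 3 h, a log2 change of 0.65 ± 0.23. In AT3G02480 the letters were close and the 2 times did not overlap. The largest falls were larger than these rises. AT4G30990 had 100 and 24.3 at 9 h, against 183 and 51.2 at 3 h, a log2 change of -0.98 ± 0.84 (SE). AT5G27750 had 65.5 and 38.8 at 9 h, against 115 and 74.1 at 3 h, a log2 change of -0.87 ± 0.38 (SE). OCT1 (AT1G73220), an organic cation and carnitine transporter, had 196 and 162 at 9 h, against 389 and 279 at 3 h, and PDF1.4 had 104 and 53.6 at 9 h, against 185 and 92.2 at 3 h. IDH-V (AT5G03290), a subunit of mitochondrial isocitrate dehydrogenase, had 293 and 274 at 3 h, 445 and 464 at 6 h, and 241 and 379 at 9 h, so its 6 h arrays were the highest.

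Whole groups were set beside all named genes in the same way. Of the 100 highest genes, 47 were higher at 9 h than at 3 h in both letters and 2 lower in both, against 24.1% higher and 27.9% lower of the 8721 tested named genes. The median change of the 100 was 0.34 within A and -0.01 within B, so the shift lay in the A pair, whose 3 h array had the low ceiling. After quantile normalization, which gives all arrays the same distribution and was added after the data were seen, the medians of the 100 were 0.00 within A and 0.03 within B, with 27 higher and 17 lower in both letters. The ribosomal list behaved alike, with 55 of 127 tested members higher in both letters as deposited and 34 after quantile normalization.

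The plastid-encoded genes had positive medians in both letters. Of 68 tested members, 38 were higher at 9 h than at 3 h in both letters and 3 lower in both, with medians of 0.35 within A and 0.30 within B. After quantile normalization the counts were 35 and 3, with medians of 0.25 and 0.29. None of the 68 passed the test, 0 at an unadjusted p under 0.05 between 9 h and 3 h, and many plastid genes are transcribed together, so they are not independent of each other. The LEA list had 14 of 28 tested members higher in both letters and 3 lower, with medians of 0.47 within A and -0.03 within B. After quantile normalization the counts were 14 and 5, with medians of 0.20 within A and 0.02 within B. Within B the LEA list therefore showed no shift.

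The change from 3 h to 9 h was finally compared between seeds in gibberellin and seeds in water, as a difference of the 2 changes. Of 15766 probe sets, 2 (0.0127%) passed the test and 1074 had an unadjusted p under 0.05, and 0 of the named genes passed. The count depended on the model: with the letter as a replicate block 163 (1.03%) passed, 61 higher and 102 lower, of which 73 name 1 gene, and with the ceiling as a block 40 (0.254%) passed, of which 18 do. The median difference was -0.67 on the log2 scale over the 28 tested LEA genes, -0.72 over 5 storage genes and -0.83 over 6 genes of gibberellin perception and signalling, against 0.00 over all tested named genes. All 6 of the last group had a negative value, between -1.33 (GID1A) and -0.61 (SLY1). Of the 6, GID1A passed in both blocked fits (limma adjusted p = 0.298 without a block, 0.0112 with the letter and 0.0457 with the ceiling as a block). XERICO had a difference of -2.05 ± 0.30 (SE, limma adjusted p = 0.104), with changes in water of 0.31 within A and 0.39 within B. With the letter as a replicate block its limma adjusted p was 0.000371 (SE 0.21), and with the ceiling as a block 0.00755. Of the 28 LEA genes, 4 passed with the letter as a block, with AT3G53040, LTI30 and AT3G17520 lower and COR47 higher, and 3 passed with the ceiling as a block. Of the 5 storage genes, 1 (AT4G36700) passed with the letter as a block, and it was lower. Ribosomal genes had a median of 0.20 and plastid genes one of 0.04, and none of either passed in any of these 3 fits. The 4 expansins went the other way, with a median of 1.41 and values between 0.41 and 2.59. The 7 tubulins had a median of 0.51, and the 2 regulators of maturation and dormancy one of -1.53. None of these genes passed in the fit without a block. Without the A array of gibberellin at 3 h, one of those with the low ceiling, 46 probe sets passed.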

How the data were processed

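The authors deposited one table of MAS5 intensity values on a linear scale, 1 column for each of 12 arrays, per the submitters' processing notes, which name no version of MAS5. Every array has the same 2%-trimmed mean, so signals were taken to log2 with no further normalization. Gene names came from the platform annotation and the RefSeq table of TAIR10.1; a gene with several single-gene probe sets (144 genes) is given by the brightest. For time contrasts, probe sets above the 40th percentile of all signals on at least 2 of 12 arrays were kept (15766 of 22746). The 12 arrays were fitted together in limma 3.58.1 (R 4.3.3) with a mean for each of the 6 groups. Variances were moderated along an intensity trend (6 residual and 5.53 prior degrees of freedom). Two-sided p-values were adjusted by Benjamini-Hochberg over the probe sets tested. The procedure was tested on simulated data drawn with no difference between letters or ceilings, so that run cannot tell what the fit would miss on these arrays. Levels, ranks and letter-paired changes are descriptions with no test. Precision is limited by the number of arrays.

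The labels do not say that a letter marks a shared batch. The differences between A and B arrays at 2 times in water correlated across probe sets at 0.19 (3 h and 6 h), 0.16 (6 h and 9 h) and 0.22 (3 h and 9 h). Over all 15 pairs of the 6 groups the correlation lay between 0.077 and 0.28, over 0.1 in 14. The letters were therefore taken as pairing the water arrays, on the data alone. Spearman's correlation of whole arrays across times was higher than that between letters for the A arrays only. Counts with the letter as a replicate block stand beside the counts without it. For single genes between times in water, only values without a block are given.

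The members and lists were chosen with earlier results of these data known. Genes named are the 25 highest, up to 4 highest and 2 lowest of each list, the 10 steadiest moderate genes and up to 10 per direction with the largest letter-paired change for each time step; others are said to be chosen after their values were seen, and further members of the lists of hormones, LEA, references and tubulins were added likewise. The ribosomal list by locus and the lists of tubulins, ubiquitin-conjugating enzymes, WRKY factors and UDP-glycosyltransferases were added after the annotation or signals had been seen, and plastid genes were listed by chromosome. Lists of proteasome subunits, mitochondrial genes and seed protection genes had no measured member. Alternatives were quantile normalization, median centring, an offset, other filters, blocks for letter and ceiling, and leaving out arrays. No sequences are printed.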

Additional observations from a re-analysis of the deposited data

Results flagged for a closer look

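The change from 3 h to 9 h differed between seeds in gibberellin and seeds in water, by limma's test of the difference itself, in 2 probe sets that are unnamed here. For 261866_at the difference of the log2 changes was -2.78 ± 0.23 (SE, adjusted p = 0.00102): its mean signal in gibberellin was 269 at 3 h and 38.9 at 9 h, and in water 528 at 3 h and 524 at 9 h. For 250611_at it was -2.01 ± 0.24 (SE, adjusted p = 0.0275): its mean signal in gibberellin was 657 at 3 h and 188 at 9 h, and in water 1365 at 3 h and 1573 at 9 h. The call of 250611_at was lost in 15 of the 21 alternatives run (adjusted p = 0.102 with quantile normalization and 0.322 without an intensity trend, among others), and that of 261866_at in 1 (adjusted p = 0.0518 on arrays with the high ceiling alone). In both, the change within water was small (-0.01 and 0.20 on the log2 scale). Groups of 2 arrays are too small for a test of single outlying arrays.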

How the results depend on the processing

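The count of calls between times in water stayed at 0 under each alternative but 1: with letter A or B as a replicate block, 2 probe sets passed between 9 h and 3 h, both unnamed here. The block changed no call between 6 h and 3 h or between 9 h and 6 h. Leaving out 1 array gave 0 calls in each time comparison. For the difference between gibberellin and water in the change from 3 h to 9 h (2 calls), the count was 1 with quantile normalization, 1 with median centring, 1 without an intensity trend, 4 with log2(signal + 16), 4 on arrays with the high ceiling alone, 0 on probe sets that name 1 gene, 40 with the ceiling as a block and 163 with the letter as a replicate block. Without single arrays it lay between 1 and 46. The cause of these moves was not tested. Letter-paired changes of 1 or more in the same direction, as a number of probe sets, dropped to 1 (6 h and 3 h), 0 (9 h and 6 h) and 4 (9 h and 3 h) with log2(signal + 16), which by construction shrinks changes at low signal. Spearman's correlation between times was 0.927, 0.939 and 0.940 (6 h with 3 h, 9 h with 6 h, 9 h with 3 h) on high-ceiling arrays alone and 0.927, 0.928 and 0.931 on B arrays alone, both with fewer arrays per mean, and 0.984, 0.982 and 0.983 on probe sets kept by the filter. Without single arrays it lay between 0.941 and 0.962, 0.939 and 0.960, and 0.940 and 0.960. The band counts and the membership of the 100 highest genes (94 to 100 shared) kept within a factor of 1.5 under each alternative run. The 2 called probe sets kept their direction under each alternative run, and 250611_at lost its call in 15 of them and 261866_at in 1.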
